A study of Mus musculus with 26 samples.

Results

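The genes described here are 10 genes of myoblast fusion, the step by which single muscle precursor cells join into a fibre with many nuclei. They were taken by gene symbol from both deposited expression tables, in which all 10 were found among the 53465 genes listed for mouse muscle and the 55487 genes listed for C2C12 cells. The set holds 2 fusogens, 4 adhesion receptors and 4 genes of actin remodelling and signalling. All 10 passed the filter on low values in both tables, which was at least 0.5 FPKM in at least 2 libraries. In muscle, Cdh2 passed it only through the libraries of days 3 and 5, where it was high.

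RNA-seq was compared in 18 of the 26 samples of the series, with 2 libraries a group. The muscle samples were skeletal muscle after cardiotoxin, a snake venom toxin that kills fibres and sets off regeneration. They were labelled CTX-D0, D1, D3, D5 and D10, and the methods give the muscle as the tibialis anterior of 6-week-old male C57BL/6 J mice. The source of day 0, untouched or injected with saline, was not settled from the labels. The C2C12 samples, a mouse myoblast line, were control (CTRL) and Cas9M3 cells in growth medium (day 0, GM) and on day 3 of differentiation in low serum. In Cas9M3 cells, per the methods, dCas9 joined to the KRAB repressor was driven by the ubiquitin C promoter and guided to the promoter of Mettl3, the catalytic subunit of the enzyme that writes N6-methyladenosine (m6A) on RNA. The lines were delivered by lentivirus and selected with puromycin, and were not described as single clones. The series text calls the derivatives knockouts, whereas the methods describe a knockdown. The 8 libraries of METTL3 or GFP overexpression were not analysed here.

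Muscle fibres form when myoblasts leave the cell cycle, adhere and merge their membranes. Myomaker (Mymk), a membrane protein with several spans, and myomixer (Mymx), a short membrane peptide, carry out the merger itself and are known for expression limited to the time of fusion. Adhesion receptors such as M- and N-cadherin, Cdon and the JAM proteins bring the cells together, and Dock1, Rac1, N-WASP and focal adhesion kinase drive the actin changes and signalling that precede fusion, in many cell types besides muscle.

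The values were FPKM, fragments scaled by exon length and by a factor for each library that was not its depth alone. They can be compared between genes on this scale. The low FPKM values stepped in whole reads, which put the depth at 14170000 to 18820000 reads a muscle library and 14230000 to 29560000 a C2C12 library. For a gene of 1 kilobase, 1 read stood for 0.0803 FPKM in replicate 1 of day 0 muscle (16780000 reads). It stood for 0.0494 FPKM in replicate 2 of day 3 (14290000 reads). Fold changes under a scaling by depth alone were not tested. Fold changes are given on the log2(FPKM + 0.1) scale, which understates the change of low genes, with limma's moderated test across all genes and Benjamini-Hochberg adjustment, and a gene was called where the adjusted p was 0.05 or less. Some libraries stood apart. In muscle, 5 libraries held Xist, a transcript of the inactive X chromosome of female cells, at 5.77 to 10.0 FPKM, namely both of day 0, both of day 10 and replicate 2 of day 3, and the other 5 held at most 0.152, although the methods name male mice. In C2C12 cells, loci of ribosomal RNA took 8.22 to 28.7% of the reads of the replicate 2 libraries and 0.412 to 0.536% in replicate 1, and the part of this in the C2C12 results was not tested. The labels do not say whether the 2 libraries of a group came from separate animals or cultures, so the p-values measure only the spread between these samples.

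In annotation of GRCm38, Mymk lies on chr2:27061636-27072179 and Mymx on chr17:45600971-45602102, both on the minus strand and both protein coding. Cdon, an immunoglobulin superfamily receptor that promotes myogenic differentiation, lies on chr9:35421128-35507652 on the plus strand, and Jam3, a junctional adhesion molecule, on chr9:27097384-27155421 on the minus strand. The exons of Jam3 overlap those of the antisense gene Gm48796 over 1159 bases and those of Rac1 overlap Daglb on the other strand over 2309 bases, and since the strand setting of the counting was not stated, reads there cannot be assigned with certainty. Gm48796 stood at 0.0101 to 0.139 FPKM in the C2C12 libraries, and Daglb at 1.19 to 2.00 FPKM in C2C12 and 4.26 to 7.15 in muscle.

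Since Cas9M3 cells have less Mettl3, the letters GGACT, a frequent form of the m6A consensus, were searched on the transcript strand within 100 bases either side of the end of the stop codon, the region where m6A is known to be dense. Such a match was present in 22.95% of 19390 genes with a full window. Of the 10 fusion genes, 4 held it, namely Cdh2, Cdon, Dock1 and Rac1. These letters were not in this window of Mymk, Mymx, Jam2, Jam3, Ptk2 or Wasl. A match is a stretch of letters and not a measured m6A site. Other forms of the consensus were not searched, so a gene without these letters may still carry m6A. For both fusogens the paper reports an m6A peak near the 3′ untranslated region in differentiating cells, and enrichment with an m6A antibody. The windows in Cdon, which was called in the C2C12 comparisons below, and in Dock1 and Rac1, which were not, are shown with GGACT in capitals, 5′ to 3′, all 3 in coding sequence, from GRCm38:
Cdon chr9:35504123-35504147, plus strand: ctgtcttggaGGACTgtggtgagaa
Dock1 chr7:135172511-135172535, plus strand: agacctcagtGGACTctggaatcgt
Rac1 chr5:143507050-143507074, minus strand: cacacagcgaGGACTcaagacagtg

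Across the regeneration course both fusogens formed a sharp peak on day 3. Mymk stood at 0.637 and 3.57 FPKM on day 0, 2.59 and 1.16 on day 1, 132 and 241 on day 3, 18.03 and 12.6 on day 5, then 4.0 and 9.33 on day 10. Mymx stood at 0.234 and 1.31 FPKM on day 0, 0.612 and 0.148 on day 1, 78.9 and 80.3 on day 3, 4.90 and 3.95 on day 5, then 1.35 and 2.13 on day 10. In both genes the day 3 libraries lay above all others, day 5 came next without overlap, and days 0 and 1 overlapped. The lowest levels rest on few reads, with 3 and 18 reads implied for Mymx on day 0 and 9 and 2 on day 1, against 1600 and 1668 on day 3. On day 3 Mymk ranked in the 99.1 and 99.5 percentiles of the genes above 0 in its libraries. The ratio of Mymk to Mymx ranged from 1.67 to 7.82 over the 10 libraries, with the lowest value in replicate 1 of day 3. The highest, in replicate 2 of day 1, rests on 2 implied reads of Mymx.

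Among the adhesion receptors, 3 of 4 also were highest on day 3. N-cadherin (Cdh2) stood at 0.109 and 0.232 FPKM on day 0, 0.0779 and 0.255 on day 1, 4.06 and 4.99 on day 3, 0.761 and 0.830 on day 5, then 0.162 and 0.280 on day 10. Jam3 stood at 4.01 and 4.0 FPKM on day 0, 2.84 and 3.40 on day 1, 13.7 and 14.7 on day 3, 5.83 and 6.59 on day 5, then 3.11 and 5.37 on day 10. Cdon stood at 2.23 and 2.50 FPKM on day 0, 1.75 and 2.40 on day 1, 5.96 and 6.31 on day 3, 4.45 and 4.57 on day 5, then 2.66 and 2.98 on day 10. For these 3 receptors too, day 3 was highest and day 5 second, with no overlap between them or with any other day. The share of all genes with this order of days was not counted, for the receptors or the fusogens. Jam2, the binding partner of Jam3, showed no such peak, with 6.41 and 5.59 FPKM on day 0, 4.91 and 4.58 on day 3 and a range of 2.98 to 6.55 FPKM over all libraries. The ratio of Jam3 to Jam2 was thus 2.79 and 3.22 on day 3, and 0.520 to 1.76 in the other 8 libraries.

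On the FPKM scale, the actin and signalling genes stayed within narrow ranges. The implied reads in replicate 1 of days 0 and 3 were 1985 and 2963 for Rac1 and 212 and 365 for Wasl. They were 355 and 628 for Ptk2 and 93 and 323 for Dock1, in libraries of 16780000 and 14330000 reads. Whether these genes stay level under a scaling by depth alone was not tested. Wasl, which encodes N-WASP, an activator of actin branching, ranged from 2.76 to 3.59 FPKM over the 10 libraries, and Ptk2, which encodes focal adhesion kinase, from 2.19 to 3.62. Rac1, a small GTPase that acts on the actin network, was the most abundant of the 4 at 28.2 to 51.6 FPKM, with 51.6 and 40.5 on day 1 above every other library. Dock1, which activates Rac1, ranged from 0.762 to 2.12 FPKM, and its 2 libraries of day 10 lay apart at 0.762 and 1.71. The ratio of the highest to the lowest group mean over the 5 days was 99.5 for Mymk, 209 for Mymx and 27.2 for Cdh2, 4.55 for Jam3 and 2.96 for Cdon, and 1.14 to 1.87 for Jam2 and the 4 actin genes.

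**Figure D1:**
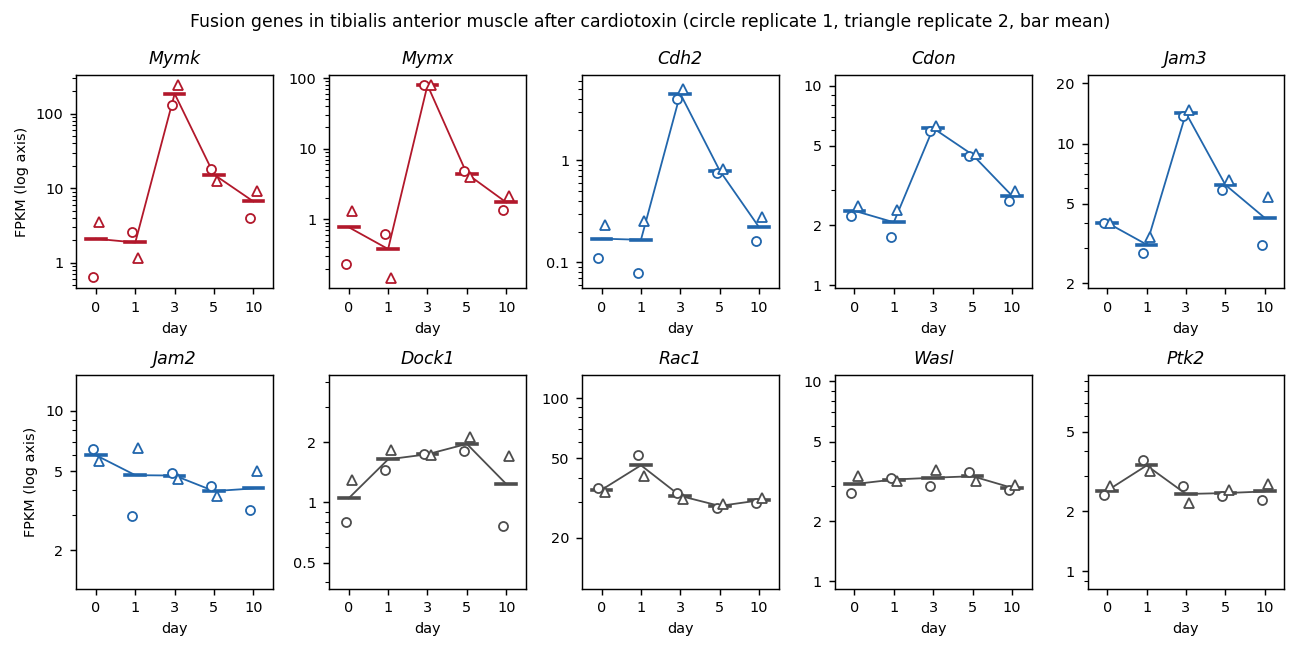
FPKM on a log axis of the 10 fusion genes in muscle against the day after cardiotoxin, with circles for replicate 1, triangles for replicate 2, and bars and lines for the mean of 2 libraries (red fusogens, blue adhesion receptors, grey actin and signalling genes). Mymk, Mymx, Cdh2, Cdon and Jam3 are highest on day 3, and Wasl stays between 2.76 and 3.59 FPKM.

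On day 3 against day 0, which asks what changed at the height of regeneration, 5 of 10 fusion genes rose and 0 fell, where 48.8% of all 16753 genes tested were called, 24.5% higher and 24.3% lower. Mymx rose by 6.86 ± 0.69 on the log2 scale (SE, 2 libraries a day, adjusted p = 0.000425) and Mymk by 6.76 ± 0.78 (adjusted p = 0.000583), which were the 2nd and 4th largest rises of all genes. Cdh2 rose by 4.12 (adjusted p = 0.00043), the 196th largest rise. As it passed the filter only through days 3 and 5, the direction of its differences from days 0, 1 and 10 is partly fixed by the filter. Jam3 rose by 1.80 (adjusted p = 0.000991) and Cdon by 1.34 (adjusted p = 0.000908). The rises of all 5 stayed past the threshold under every alternative run and without any single library, replicate 2 of day 3 included, though with a pseudocount of 1 the rise of the low gene Cdh2 was 2.24. Jam2, Dock1, Rac1, Wasl and Ptk2 were not called, with 95% intervals on the log2 scale of -1.15 to 0.49 for Jam2, -0.13 to 1.56 for Dock1, -0.43 to 0.22 for Rac1, -0.27 to 0.48 for Wasl and -0.46 to 0.34 for Ptk2. The direction of Rac1 and Wasl turned under quantile normalization.

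These are bulk tissue samples, in which more cells of a type and more RNA per cell cannot be told apart. The summed FPKM of 6 macrophage markers went from 41.9 to 85.2 on day 0 to 1392 to 1413 on day 3, that of 4 fibroblast markers from 37.8 to 91.4 to 398 to 433, and that of 5 fibre markers fell from 45350 to 52620 to 11560 to 14800. All 6 macrophage markers were above 0.1 FPKM in both groups. The summed FPKM of 5 markers of myoblasts and myocytes, most of it desmin (Des), was 777 to 838 on day 0 and 803 to 970 on day 3. The part of these shifts in the rises of the fusion genes was not tested. Of 8 myogenic context genes 7 rose and 0 fell, where 24.5% of all genes were higher and 24.3% lower. Myogenin (Myog), a myogenic transcription factor, rose from a mean of 9.35 to 248 FPKM (log2 4.74, adjusted p = 0.000285), and embryonic myosin (Myh3) from 6.24 to 566 FPKM (log2 6.52, adjusted p = 0.000269), while Myf6 had a log2 difference of -0.43 (adjusted p = 0.182). Des, which was in the marker set, stood at 748 and 815 FPKM on day 0 and 469 and 652 on day 3.

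The rise came between days 1 and 3. On day 1 against day 0, 0 of 10 fusion genes were called by limma, where 6% of all genes were (3.53% higher and 2.47% lower), and 2 were at an unadjusted p under 0.05, namely Rac1 at a log2 difference of 0.40 (adjusted p = 0.122) and Ptk2 at 0.40 (adjusted p = 0.18). Without replicate 2 of day 1, Rac1 was called (adjusted p = 0.0379). On day 3 against day 1, where 31.1% of all genes were called (14.5% higher and 16.6% lower), those 5 genes rose, namely Mymx by 7.57, Mymk by 6.60, Cdh2 by 4.19, Jam3 by 2.16 and Cdon by 1.54 on the log2 scale (adjusted p of 0.00205 to 0.00273). Rac1 fell by 0.50 (adjusted p = 0.0313), a call that was lost with only these groups in the fit, under quantile normalization, with a term for Xist, and without replicate 1 of day 1 or either library of day 3. Ptk2 differed by -0.46 (adjusted p = 0.0747) and was called under quantile normalization (-0.59, adjusted p = 0.0257).

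The fall began by day 5. On day 5 against day 3, 4 fusion genes fell, where 12.7% of all genes were called (7.23% higher and 5.46% lower). Mymx fell by 4.15 on the log2 scale (adjusted p = 0.0124), Mymk by 3.56 (adjusted p = 0.0269), Cdh2 by 2.36 (adjusted p = 0.0147) and Jam3 by 1.18 (adjusted p = 0.0218). The difference of Cdon was -0.43 (adjusted p = 0.149), which was called with only these groups in the fit (adjusted p = 0.0492), and the call of Mymk was lost with no filter (adjusted p = 0.0521). Without any 1 of the 4 libraries of these days, 0 of the 4 calls remained, with adjusted p from 0.0607 to 0.167, and 0 remained with a term for Xist, while the fold changes of these 4 genes kept their direction. On day 10 against day 3, where 37.9% of all genes were called (19.1% higher and 18.8% lower), those 4 genes and Cdon fell, with log2 differences of -5.47 for Mymx, -4.84 for Mymk, -3.87 for Cdh2, -1.77 for Jam3 and -1.10 for Cdon (adjusted p of 0.000802 to 0.00307), and all 5 were called under every alternative and without any single library.

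On day 5, 4 fusion genes still stood above day 0, where 25.5% of all genes were called (12.9% higher and 12.5% lower). Mymk rose by 3.21 (adjusted p = 0.0253), Mymx by 2.71 (adjusted p = 0.0296), Cdh2 by 1.76 (adjusted p = 0.024) and Cdon by 0.91 (adjusted p = 0.0159), and the difference of Jam3 was 0.62 (adjusted p = 0.0959). These calls were lost without replicate 1 of day 0 or either library of day 5, with adjusted p of up to 0.148. Both fusogen calls were also lost with no filter (adjusted p of 0.0516 for Mymk and 0.0587 for Mymx) and with only these groups in the fit (0.0516 and 0.0574), where Jam3 was called (0.0406). Xist separated both libraries of day 0 from both of day 5, and with a term for it 0 genes of the whole table were called, these 4 included, while their log2 differences were 4.07 for Mymk, 2.74 for Mymx, 2.05 for Cdh2 and 0.99 for Cdon. On day 10 against day 0, where 0.00597% of all genes were called, 0 of 10 fusion genes were called by limma and 1 was at an unadjusted p under 0.05, Mymk at a log2 difference of 1.92 (adjusted p = 0.468, 95% interval 0.12 to 3.72). Both libraries of day 10 lay above both of day 0 for Mymk and Mymx, by a narrow margin. The nearest libraries of days 10 and 0 were at 4.0 and 3.57 FPKM for Mymk. For Mymx they were at 1.35 and 1.31 FPKM, on 17 and 18 implied reads. Cdon also lay above day 0 without overlap, whereas Jam2 and Rac1 lay below it. How often the 2 days separate over all genes was not counted.

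Relatives of the fusion genes were followed as well. The list mixed paralogs of the adhesion receptors, such as Cdh15, with paralogs of the actin regulators, some of them known from blood cells. Of 12 paralogs, 11 were tested, and on day 3 against day 0, 9 rose and 0 fell, where 24.5% of all genes were higher and 24.3% lower, with a median log2 change of 1.94 against 0.0075 over all genes. Rac2, the Rac GTPase of blood cells, went from 0.740 and 0.839 FPKM on day 0 to 10.4 and 10.6 on day 3 (log2 3.58, adjusted p = 0.000848). Ptk2b, a kinase related to Ptk2, went from 0.141 and 0.203 to 3.10 and 2.95 FPKM (log2 3.53, adjusted p = 0.0013). Dock2, the Rac activator of lymphoid and myeloid cells, went from 0.127 and 0.177 to 2.04 and 2.01 FPKM (log2 3.08, adjusted p = 0.000555). Dock2 and Ptk2b were under 0.5 FPKM in both libraries of day 0, as were Dock5 and Adam12 named below, and passed the filter only through later days where they were high, so that the direction of their rises is partly fixed by it. The macrophage markers given above moved with them, and their part in these rises was not tested. In the 8 C2C12 libraries, Rac2 was listed at 0 in all and Dock2 in 7.

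**Figure D2:**
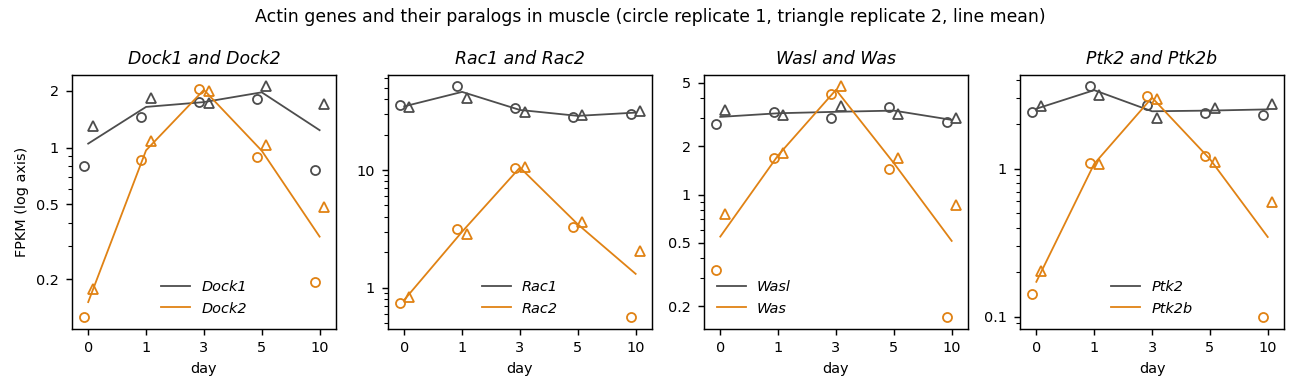
FPKM on a log axis against the day after cardiotoxin for 4 actin and signalling genes (grey) and a paralog of each (orange), with circles for replicate 1, triangles for replicate 2 and lines for the mean. Rac2 peaks at 10.4 and 10.6 FPKM on day 3, whereas Wasl and Ptk2 keep nearly level on this FPKM scale.

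Other genes of the fusion pathway were counted from fixed lists. Of 31 surface and membrane genes, 26 were tested on day 3 against day 0, and 18 rose and 3 fell, beside 24.5% higher and 24.3% lower over all genes. The largest rises were those of Ncam1, a neural cell adhesion molecule of myoblasts (log2 4.46, adjusted p = 0.000324), Myof, a membrane repair protein (4.09, adjusted p = 0.000593), and Adam12, a metalloprotease (3.84, adjusted p = 0.00128). Those that fell were Cd36, a fatty acid transporter (-1.84, adjusted p = 0.00945), Ano5 (-1.15, adjusted p = 0.00398) and Stab2 (-0.995, adjusted p = 0.0391). Of 30 further genes of actin, adaptors and endocytosis, 29 were tested, and 16 rose and 2 fell beside the same shares, with Dock5 (1.94, adjusted p = 0.00343), Actr3, a subunit of the Arp2/3 complex (1.61, adjusted p = 0.00106), and Wipf1 (1.57, adjusted p = 0.00118) at the top, and Pxn, the focal adhesion protein paxillin (-0.53, adjusted p = 0.0116), and Arhgap10 (-0.48, adjusted p = 0.0176) as those that fell. The medians of both lists were 1.33 and 0.73. By day 5 against day 3, 6 of the 26 and 3 of the 29 had fallen and 0 and 1 had risen, the last being Pxn (0.62, adjusted p = 0.0228), where 5.46% of all genes were lower and 7.23% higher. Those that fell included Myof (-1.80, adjusted p = 0.0474), M-cadherin or Cdh15 (-1.78, adjusted p = 0.00525), and Bcar1 (-1.10, adjusted p = 0.00897).

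The targeted gene was checked before the C2C12 comparisons. Mettl3 stood at 4.70 and 5.65 FPKM in control GM, 4.68 and 5.15 in control day 3, 0.331 and 0.118 in Cas9M3 GM, and 0.148 and 0.0805 in Cas9M3 day 3. No Cas9M3 library reached a control library. The log2 difference between Cas9M3 and control cells was -4.57 on day 3 (adjusted p = 0.0187) and -4.10 in GM (adjusted p = 0.189). Of 6 macrophage markers, Ptprc, Adgre1 and C1qa were under 0.1 FPKM in every C2C12 group, as were Pecam1, Cdh5 and Kdr of 4 endothelial markers. The other macrophage markers, Cd68, Csf1r and Lyz2, made up most of a sum that was not absent. The summed FPKM of all 6 was 1.89 to 10.1 in control GM and 5.24 to 7.39 in Cas9M3 GM. On day 3 it was 2.27 to 2.34 in control and 7.19 to 8.40 in Cas9M3 cells. In muscle, Mettl3 had no called change in any comparison.

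The fusogens were high in 1 of the 4 C2C12 groups, control cells on day 3. Mymk stood at 6.49 and 2.26 FPKM in control GM, 199 and 180 in control day 3, 11.8 and 0.613 in Cas9M3 GM, and 4.58 and 3.47 in Cas9M3 day 3. Mymx stood at 1.07 and 0.101 FPKM in control GM, 7.56 and 11.6 in control day 3, 1.08 and 0.106 in Cas9M3 GM, and 0.559 and 0.265 in Cas9M3 day 3. Both control day 3 libraries lay far above the other 6 for both genes, and the remaining 3 groups overlapped. In GM the replicate 1 libraries of both lines were higher than the replicate 2 libraries, and at the low end the Mymx values rest on 1 and 2 implied reads. Myog showed the same split in GM, at 11.1 and 2.70 FPKM in control and 12.7 and 0.182 in Cas9M3 cells.

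Cdon was also highest in control cells on day 3, with closer replicates in GM. Its levels were 5.09 and 6.31 FPKM in control GM, 70.6 and 52.3 in control day 3, 7.46 and 6.16 in Cas9M3 GM, and 13.6 and 12.8 in Cas9M3 day 3. Cas9M3 day 3 lay above both GM groups and below control day 3 without overlap. The share of all genes whose C2C12 groups separate was not counted. Jam3 went the other way, with 5.80 and 6.70 FPKM in control GM, 4.02 and 4.07 in control day 3, 6.83 and 7.93 in Cas9M3 GM, and 6.79 and 7.19 in Cas9M3 day 3, so that control day 3 was the lowest group.

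Cdh2 was lowest in control GM at 9.81 and 6.42 FPKM, followed by 18.6 and 13.5 in control day 3, 14.1 and 18.3 in Cas9M3 GM, and 26.1 and 21.8 in Cas9M3 day 3, the highest group. Jam2 stood at 19.6 and 11.8 FPKM in control GM, 26.5 and 24.1 in control day 3, 16.9 and 14.8 in Cas9M3 GM, and 24.5 and 21.1 in Cas9M3 day 3, with both day 3 groups above both GM groups. The actin and signalling genes kept to narrower ranges than the fusogens, Cdon and Cdh2, but not than Jam2. The ratio of the highest to the lowest group mean was 1.61 for Jam2 and 1.82 for Jam3, beside 1.79 for Wasl. Wasl ranged from 7.38 to 14.4 FPKM with control day 3 the highest group, Ptk2 from 7.82 to 12.8, Dock1 from 6.21 to 13.3 and Rac1 from 63.4 to 106. The ratio of the highest to the lowest group mean was 47.0 for Mymk, 23.3 for Mymx and 10.8 for Cdon, against 1.41 to 2.95 for the other 7 genes.

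**Figure D3:**
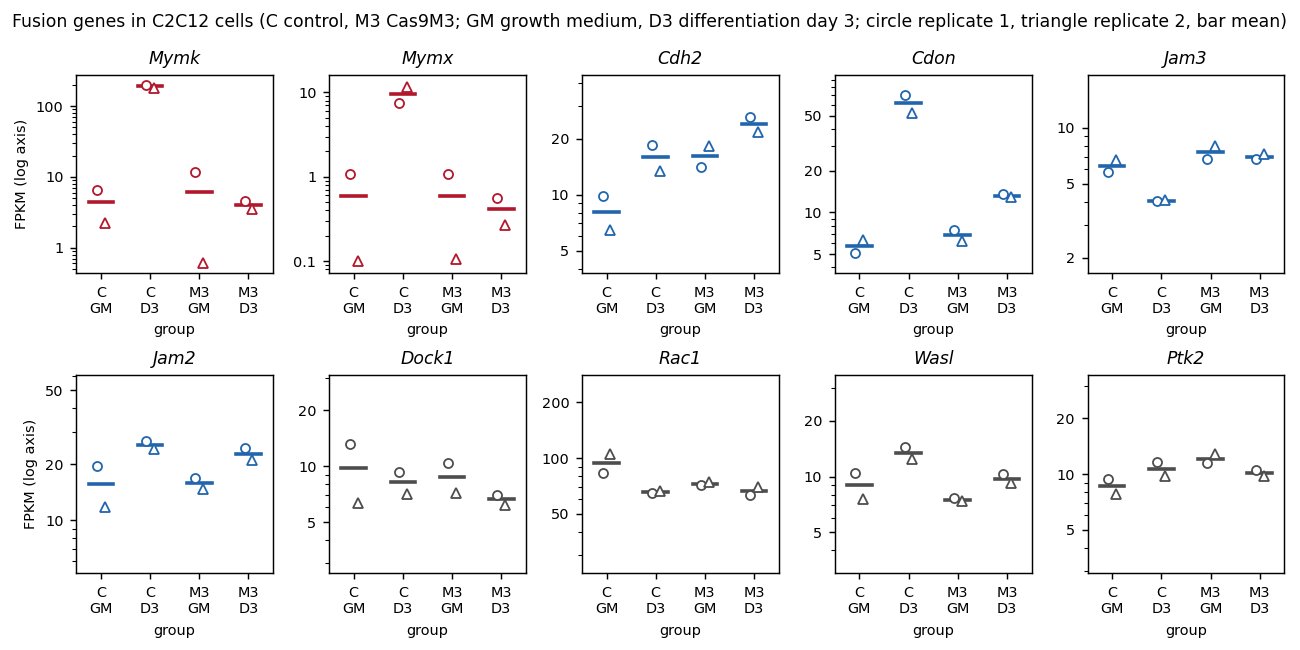
FPKM on a log axis of the 10 fusion genes in C2C12 cells by group (C control, M3 Cas9M3, GM growth medium, D3 day 3 of differentiation), with circles for replicate 1, triangles for replicate 2 and bars for the mean of 2 libraries. Mymk is at 199 and 180 FPKM in control day 3 and at most 11.8 in the other 6 libraries.

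During differentiation of control cells, day 3 against GM, 1 of 10 fusion genes was called, where 1.14% of all 13824 genes tested were (0.767% higher and 0.376% lower). Cdon rose by 3.40 ± 0.22 on the log2 scale (SE, 2 libraries a group, adjusted p = 0.0139), a call lost with only these groups in the fit (adjusted p = 0.119). The differences of the fusogens were larger but less even between libraries, with 5.58 ± 1.23 for Mymk (adjusted p = 0.101, 95% interval 2.61 to 8.55) and 4.29 ± 1.08 for Mymx (adjusted p = 0.131, 95% interval 1.68 to 6.90). With the replicate number as a block, which pairs these libraries, Mymk was called (adjusted p = 0.0447) and Mymx had an adjusted p of 0.0559, whereas with a pseudocount of 1 Mymx was called (adjusted p = 0.0358) and Mymk was not. Taken within replicate 1 and within replicate 2, the log2 differences were 4.91 and 6.25 for Mymk, 2.71 and 5.87 for Mymx, and 3.77 and 3.03 for Cdon. The remaining differences were 0.99 for Cdh2, 0.73 for Jam2, 0.59 for Wasl, 0.31 for Ptk2, -0.17 for Dock1, -0.51 for Rac1 and -0.61 for Jam3, with adjusted p of 0.168 to 0.814. The count of rises went from 0 without either library of control day 3 to 6 without replicate 1 of control GM, when Mymk, Mymx, Cdh2, Jam2 and Wasl were called besides Cdon and Jam3 and Rac1 fell.

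In Cas9M3 cells over the same change of medium, 0 of 10 fusion genes were called by limma, where 0.0289% of all genes were (0.0145% higher and 0.0145% lower), and 1 was at an unadjusted p under 0.05, Cdon at a log2 difference of 0.95 (adjusted p = 0.145). The difference was 0.49 for Mymk (95% interval -2.48 to 3.46) and -0.0075 for Mymx (95% interval -2.62 to 2.61), and the replicates went in opposite directions, at -1.34 and 2.32 for Mymk and -0.84 and 0.83 for Mymx.

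Cas9M3 and control cells were compared within each day, to ask whether lower Mettl3 went with other levels of the fusion genes. In GM, 0 of 10 fusion genes were called by limma, where 0% of all genes were and 1244 genes were at an unadjusted p under 0.05. The 2 fusion genes at that unadjusted level were Cdh2, at a log2 difference of 1.01 (adjusted p = 0.426), and Ptk2, at 0.49 (adjusted p = 0.525). The fusogens differed by -0.44 for Mymk (95% interval -3.41 to 2.53) and 0.023 for Mymx (95% interval -2.59 to 2.64). Both libraries of a line lay far apart here, as given above.

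On day 3, 1 of 10 fusion genes was called, where 1.98% of all genes were (1.29% higher and 0.687% lower). Cdon was lower in Cas9M3 cells by -2.20 ± 0.22 on the log2 scale (adjusted p = 0.0199), with mean levels of 13.2 against 61.4 FPKM. Mymk differed by -5.53 ± 1.23 (adjusted p = 0.0838), with mean levels of 4.03 against 189 FPKM, and Mymx by -4.27 ± 1.08 (adjusted p = 0.11), with 0.412 against 9.60 FPKM. With the replicate block Mymk was called (adjusted p = 0.0394) and Mymx had an adjusted p of 0.0545, and with a pseudocount of 1 both were called (adjusted p of 0.0405 and 0.0254). With only the 4 libraries of day 3 in the fit, which leaves out the uneven GM libraries, Mymk (adjusted p = 0.000594), Mymx (0.0033) and Jam3 (0.0135) were all called. Without any 1 of these 4 libraries, no fusion gene was called, and the log2 differences ranged from -5.73 to -5.34 for Mymk, -4.70 to -3.85 for Mymx and -2.41 to -1.98 for Cdon. With 2 libraries against 2, an exact permutation test of a single gene cannot go below a two-sided p of 0.333.

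Within replicate 1 and within replicate 2, Mymk was 43.4-fold and 51.9-fold higher in control than in Cas9M3 cells on day 3, Mymx 13.5-fold and 43.9-fold, and Cdon 5.20-fold and 4.08-fold. Jam3 differed by 0.77 on the log2 scale, higher in Cas9M3 cells (adjusted p = 0.0887) and Cdh2 by 0.59 (adjusted p = 0.373), so that the direction among the adhesion receptors was mixed. Jam2 (-0.15, 95% interval -0.79 to 0.49), Rac1 (0.016, -0.44 to 0.47), Ptk2 (-0.070, -0.52 to 0.38), Dock1 (-0.29, -1.22 to 0.63) and Wasl (-0.46, -0.96 to 0.045) had intervals that include 0. By RT-qPCR after induced differentiation, the paper reports substantially higher expression of fusion genes in the knockdown cells. Its text does not name the genes of that assay. The paper also reports more myosin heavy chain protein and more fusion in those cells. Mymk, Mymx and Cdon here went in the opposite direction, lower in Cas9M3 cells, and the reason was not tested.

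**Figure D4:**
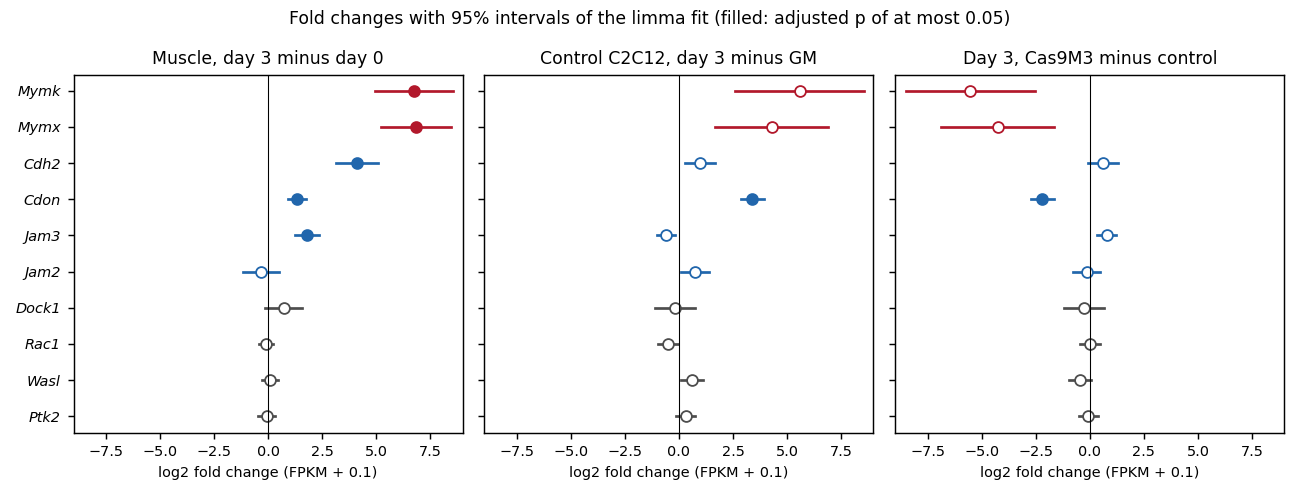
Log2 fold changes of the 10 fusion genes on the log2(FPKM + 0.1) scale for muscle on day 3 against day 0, control C2C12 cells on day 3 against GM, and Cas9M3 against control cells on day 3. Points are estimates, lines 95% intervals of the limma fit and filled points an adjusted p of at most 0.05, which 5, 1 and 1 genes reached.

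Whether the difference between the lines changed from GM to day 3 was tested as an interaction. It was called for 0 of 10 fusion genes by limma, where 0% of all genes were called and 1198 were at an unadjusted p under 0.05. The 3 fusion genes at that unadjusted level were Cdon at -2.45 (adjusted p = 0.266), Mymk at -5.09 (adjusted p = 0.485) and Mymx at -4.30 (adjusted p = 0.515). The log2 estimates for the other 7 lay between -0.56 and 0.54.

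Related genes moved in the same comparisons. Of 9 paralogs tested in control cells, Cdh15 rose (1.29 and 2.04 FPKM in GM, 43.3 and 34.6 on day 3, log2 4.49, adjusted p = 0.0438) and Rac3 fell (means of 32.5 and 7.36 FPKM, log2 -2.13, adjusted p = 0.0206). Of 22 surface and membrane genes, 2 rose, Cdh15 and Itga7, a laminin receptor of muscle (log2 2.13, adjusted p = 0.0206), and of 30 actin, adaptor and endocytosis genes 0 were called, where 0.767% of all genes were higher and 0.376% lower. Between the lines on day 3, 1 of these 22 genes fell, Itga7 (means of 12.4 and 47.9 FPKM, log2 -1.93, adjusted p = 0.0215), and 0 of 9 and 0 of 30 in the other lists were called, where 1.29% of all genes were higher and 0.687% lower. Myod1, a master regulator of myogenesis, fell as well (means of 4.36 and 30.8 FPKM, log2 -2.80, adjusted p = 0.0337), and Myog stood at 3.50 and 2.28 FPKM in Cas9M3 cells against 89.1 and 83.3 in control cells (adjusted p = 0.197).

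The fusogens were set against the other 8 fusion genes in each library, as the mean log2(FPKM + 0.1) of the 2 minus that of the 8. In muscle the difference was -2.45 and -0.46 on day 0, -0.98 and -2.60 on day 1, 4.20 and 4.61 on day 3, 1.31 and 0.85 on day 5, then -0.017 and 0.44 on day 10. In C2C12 cells it was -2.19 and -3.92 in control GM, 1.06 and 1.53 in control day 3, -1.80 and -5.06 in Cas9M3 GM, and -3.13 and -3.65 in Cas9M3 day 3. Day 3 was the highest group in muscle and control day 3 in C2C12 cells, each without overlap. The mean of the 8 other genes itself moved from 1.44 and 1.65 on day 0 to 2.48 and 2.51 on day 3 in muscle, and stood between 3.38 and 4.23 in C2C12 cells. The Mymk to Mymx ratio in the 8 C2C12 libraries was 5.78 to 26.3, which overlaps its range in muscle, a table that was normalized separately. Its values in the replicate 2 libraries of GM, 5.78 in Cas9M3 and 22.4 in control cells, rest on 2 and 1 implied reads of Mymx.

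**Figure D5:**
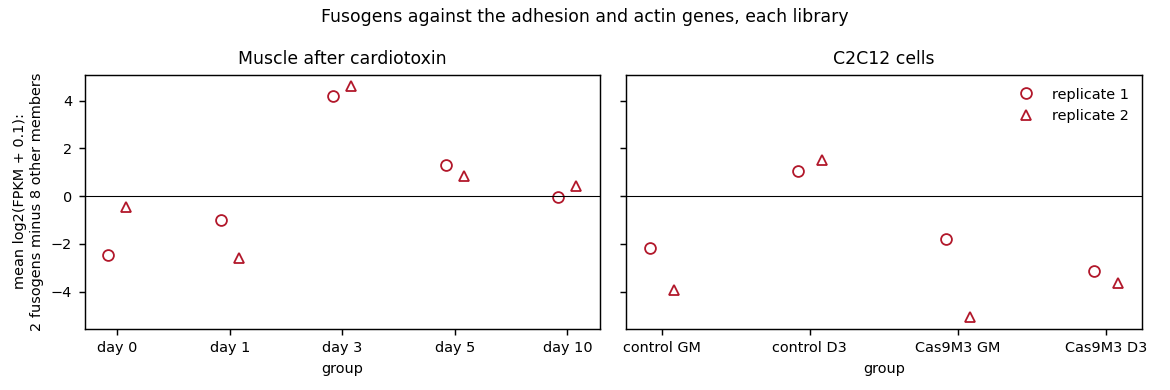
Difference between the mean log2(FPKM + 0.1) of the 2 fusogens and that of the 8 other fusion genes in each library, by group, with circles for replicate 1 and triangles for replicate 2. The muscle libraries of day 3 are at 4.20 and 4.61, and among C2C12 cells only the control day 3 libraries, at 1.06 and 1.53, are above 0.

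As a description of likeness over the libraries of a table, which share groups and depth, Pearson correlations of log2(FPKM + 0.1) were ranked. Over the 10 muscle libraries Mymk was most like Pnmal2 (r = 0.994), Fam171a2 (0.99), Npnt (0.99), Pgm5 (0.99) and Mymx (0.988), and Mymx was most like Mymk (0.988), Baiap2l1 (0.986), Fam171a2 (0.986), Pgm5 (0.985) and St8sia2 (0.984), among 14082 genes compared. Over the 8 C2C12 libraries Mymk was most like Hrc (0.991), Fam13c (0.989), Chrnd (0.989), Ctrb1 (0.988) and Mycl (0.988), and Mymx like 2210408I21Rik (0.988), Hrc (0.984), Tnnt2 (0.983), Dio2 (0.983) and Ctxn3 (0.982), among 12445 genes. Against Mymk, r in muscle was 0.943 for Cdh2, 0.925 for Jam3 and 0.917 for Cdon, and -0.45 to 0.51 for the other 5 fusion genes. In C2C12 cells r was 0.878 for Cdon, 0.846 for Wasl, 0.69 for Jam2, 0.060 for Cdh2 and -0.95 for Jam3.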

How the data were processed

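RNA was extracted with TRIzol and libraries were made with a SMARTER mRNA-Seq kit. The authors aligned reads with HISAT2 to the Ensembl GRCm38 genome (the labels also name mm10), counted them with featureCounts and deposited FPKM values from DESeq2, in a table for muscle and another for C2C12 cells. Versions and strand setting are not given in the sources used here. From these values log2(FPKM + 0.1) was tested with limma 3.58.1 (R 4.3.3), each table in 1 model over its groups, and genes kept at 0.5 FPKM or more in at least 2 libraries. The test was checked on simulated data, in which 100 genes were changed by 2 and 100 by 4 on the log2 scale. For day 3 against day 0 in muscle it called 70 and 87 of them, and for Cas9M3 day 3 against GM 43 and 66. All other genes were left unchanged, whereas 48.8% were called in the real muscle comparison. The simulated noise was independent between libraries. These shares therefore need not hold for the real comparisons. Of unchanged genes it called 8 of 16553 and 5 of 13624. A gene that was not called may thus still have changed, above all in C2C12 cells. The depth was read from the steps of low values, of which 97.0 to 98.9% were whole reads within 0.05 of a read.

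The fusion genes and lists were chosen with earlier results of these data known. Besides them, the text names the 3 called genes of each list with the largest rise and fall, context genes and the 5 genes most like each fusogen. The GGACT search was added after the data were seen. It used the principal transcript of each gene in the GENCODE annotation of GRCm38. Deviations from group means of same-numbered libraries correlated at 0.279 to 0.680 in all 6 pairs of C2C12 groups, so the numbers were taken to pair these libraries. Alternatives were other pseudocounts, filters, scalings, a replicate block, a term for Xist, only the groups compared, and each library left out, where the lone sample was assumed to vary like the other groups. Figures were drawn with matplotlib 3.10.9.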

Additional observations from a re-analysis of the deposited data

How the results depend on the processing

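The 5 rises of muscle on day 3 against days 0 and 1, and the 5 falls of day 10 against day 3, were called under every setting run. On day 5 against day 0 the count of rises went from 4 to 2 with no filter and 0 with the Xist term (0 to 4 without single libraries), and with only the groups compared Mymk and Mymx were lost and Jam3 was gained. On day 5 against day 3 the 4 falls became 0 with the Xist term and 0 without any single library, Mymk was lost with no filter (adjusted p = 0.0521) and Cdon was gained with only the groups compared (0.0492). On day 3 against day 1 the 1 fall (Rac1) became 0 with the Xist term and with only the groups compared (0 to 1 without single libraries), and with quantile normalization Rac1 was lost (adjusted p = 0.134) and Ptk2 gained (0.0257). On day 1 against day 0 the rises went from 0 to 1 without single libraries. The day and the Xist state cannot be told apart between days 0 or 10 and days 1 or 5. In control C2C12 cells the 1 rise became 2 with a pseudocount of 1 (Mymx gained) and with the replicate block (Mymk gained), and 0 with only the groups compared (0 to 6 without single libraries, with 0 to 2 falls). Between the lines on day 3 the 1 fall became 3 with a pseudocount of 1, 3 with only the groups compared (with 1 rise) and 2 with the replicate block (0 without any single library). On day 10 against day 3 the falls numbered 5 to 6 without single libraries. The cause of these changes was not tested.

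Directions turned only in differences that were not called. With quantile normalization Rac1 had 0.27 on day 3 and 0.012 on day 5 against day 0, Wasl -0.052 on day 3 against day 0 and -0.078 against day 1, and Dock1 -0.12 on day 3 against day 1. With the Xist term Wasl had -0.10 on day 3 against day 1, Cdh2 0.22 on day 1 against day 0 and Ptk2 -0.12 on day 5 against day 3, and with a pseudocount of 0.01 Mymx had 0.15 in Cas9M3 cells. Leaving out single libraries turned the log2 difference of these genes. The ranges on day 1 against day 0 were -0.996 to 1.32 for Mymk, -1.75 to 0.33 for Mymx, -0.98 to 0.13 for Jam2, -0.57 to 0.43 for Cdh2, -0.41 to 0.021 for Cdon and -0.058 to 0.22 for Wasl. On day 3 against day 0 they were -0.035 to 0.24 for Wasl and -0.20 to 0.083 for Ptk2, and on day 5 against day 0 -0.0065 to 0.27 for Wasl and -0.11 to 0.030 for Ptk2. On day 10 against day 0 they were -0.35 to 0.41 for Jam3, -0.073 to 0.59 for Cdh2, -0.38 to 0.69 for Dock1, -0.19 to 0.085 for Wasl and -0.14 to 0.11 for Ptk2. On day 3 against day 1 they were -0.46 to 0.65 for Jam2, -0.071 to 0.25 for Dock1 and -0.10 to 0.15 for Wasl, on day 5 against day 3 -0.098 to 0.15 for Wasl and -0.12 to 0.16 for Ptk2, and on day 10 against day 3 -0.57 to 0.077 for Jam2 and -0.10 to 0.185 for Ptk2. In control C2C12 cells the range was -0.70 to 0.35 for Dock1, and in Cas9M3 cells -1.54 to 2.52 for Mymk, -1.27 to 1.25 for Mymx and -0.18 to 0.032 for Jam3. Between the lines in GM the ranges were -2.47 to 1.59 for Mymk, -1.25 to 1.30 for Mymx, -0.31 to 0.42 for Jam2 and -0.61 to 0.44 for Dock1, on day 3 -0.052 to 0.084 for Rac1 and -0.19 to 0.052 for Ptk2, and for the interaction -0.57 to 0.15 for Jam2, -0.73 to 0.32 for Dock1 and -0.45 to 0.0075 for Wasl.

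Over all genes, the numbers of rises and falls also moved. Between the lines on day 3, 179 and 95 became 269 and 184 with a pseudocount of 1, 319 and 186 with the replicate block and 1491 and 1337 with only those groups. In control cells, 106 and 52 became 258 and 153 with the block, 0 and 0 with only those groups, and 188 rises with a pseudocount of 1. In Cas9M3 cells, 2 and 2 became 57 and 37 with a pseudocount of 1, 6 and 7 with quantile normalization, 6 rises with the block, and 0 and 0 with only those groups. In muscle, the Xist term left 0 genes on day 1 against day 0 (591 and 414 before), day 5 against day 0 (2169 and 2098), day 5 against day 3 (1212 and 914) and day 10 against day 0 (1 rise), 616 and 753 on day 3 against day 1 (2435 and 2778), and 1777 falls on day 10 against day 3 (3143). With only the groups compared, day 1 against day 0 held 10 and 1, day 3 against day 1 held 1823 falls, day 5 against day 3 held 1948 falls and day 10 against day 0 held 0. Quantile normalization left 219 falls on day 1 against day 0 and moved the split of day 3 against day 0 from 4104 and 4075 to 3757 and 4662, and the single rise of day 10 became 2 with the block and 0 with a pseudocount of 1.

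Muscle replicate numbers did not pair the libraries (correlations of -0.019 to 0.211 over 10 pairs of days), and the block changed no call of a fusion gene there. Outside Mymk in C2C12 cells it changed no other call. Few reads limit the fusogens where they are low, and 2 libraries a group limit every comparison.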
